A study of Mus musculus with 12 samples.

Results

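The scaffolds of the postsynaptic density and the calcium/calmodulin-dependent kinase CaMKII were followed in the cortex of adult mice of 3 Tet1 genotypes. Their 37 genes were taken by symbol from the 21738 symbols of the deposited table, as genes of proteins known at the postsynaptic side of the synapse, and 30 of them passed the filter on low counts. Tet1 encodes a dioxygenase that oxidises 5-methylcytosine in DNA, and the series title sets its catalytic against its non-catalytic functions. The groups were Tet1 WT, Tet1 HxD and Tet1 KO, with 4 libraries each of poly(A) RNA from whole adult cortex. The letters HxD also name the iron-binding motif of TET dioxygenases. The labels give no further allele, strain, sex, exact age or treatment, and they do not say how the HxD and KO alleles were made or whether the loss was limited to a cell type. Separate animals are not stated for the libraries either, and p-values here therefore refer only to the spread among these libraries, part of which may be technical.

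The postsynaptic density is a protein sheet beneath the membrane of excitatory synapses. MAGUK proteins such as PSD-95 hold glutamate receptors through PDZ domains, GKAP proteins bind the MAGUKs from below, and Shank and Homer proteins form the deeper layer that reaches metabotropic receptors and actin. CaMKII, activated by calcium-bound calmodulin, is among the most abundant proteins there and is central to synaptic plasticity in cortex and hippocampus.

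The values were estimated counts per gene, which summed to a total of 8310783 to 10915574 for a WT library, 7767787 to 10347432 for HxD, and 5791642 to 9535409 for KO. Tet1 was listed at 0 in every WT and KO library and at 1, 0, 63 and 67 counts in HxD 1 to 4, so this gene gave no check of the KO label. Gapdh, a glycolytic enzyme of every cell, was listed at 0 in all 12 libraries, and a 0 in this table is therefore given only as listed at 0. Excitatory neuron markers were present in all libraries, with summed levels of 3585 to 4970 CPM (a gene's count scaled to a common library size) in WT, 3205 to 4455 in HxD, against 3081 to 3682 in KO, and none of the 12 was at 0 throughout. Markers of the striatum, a region next to the cortex, summed to 777 to 1332 CPM in WT, to 663 to 1905 in HxD, against 595 to 872 in KO. Those of oligodendrocytes and myelin summed to 2213 to 5257 CPM in WT, to 1570 to 4644 in HxD, against 3504 to 4242 in KO.

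Together the 37 genes, with the 7 untested ones included, summed to 1.27% to 1.72% of the common library size to which CPM is scaled. Camk2n1, Nrgn, Ddn and Agap2 alone made up 81.9% to 86.9% of that sum. Divided by the length of the longest annotated transcript, the highest WT level was that of Nrgn, neurogranin, a small protein that binds calmodulin at low calcium, at 1888 ± 555 CPM per kb (SD, n = 4). Camk2n1, an inhibitor protein of CaMKII, followed at 1173 ± 224 CPM per kb, and the WT libraries of the pair overlapped (1357 to 2516 against 879 to 1378). Ddn, dendrin, a protein of dendrites and spines, stood at 692 ± 166 CPM per kb (482 to 830). Next came Agap2, a GTPase and Arf-regulating protein, at 384 ± 31.0, the GKAP family member Dlgap3 at 162 ± 20.4 and the CaMKII subunit Camk2g at 111 ± 25.0. From Ddn down to Agap2, and from Agap2 to Dlgap3, neighbouring ranges did not overlap, whereas those of Dlgap3 (140 to 187) and Camk2g (94.4 to 148) did. Iqsec1 (57.5 ± 7.40), Dlg3 (48.2 ± 2.78) and Cnksr2 (36.4 ± 2.22) came next, then Neto1 (17.8 ± 2.85) and Pick1 (17.8 ± 1.99), and the remaining members had lower WT means.

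**Figure D1:**
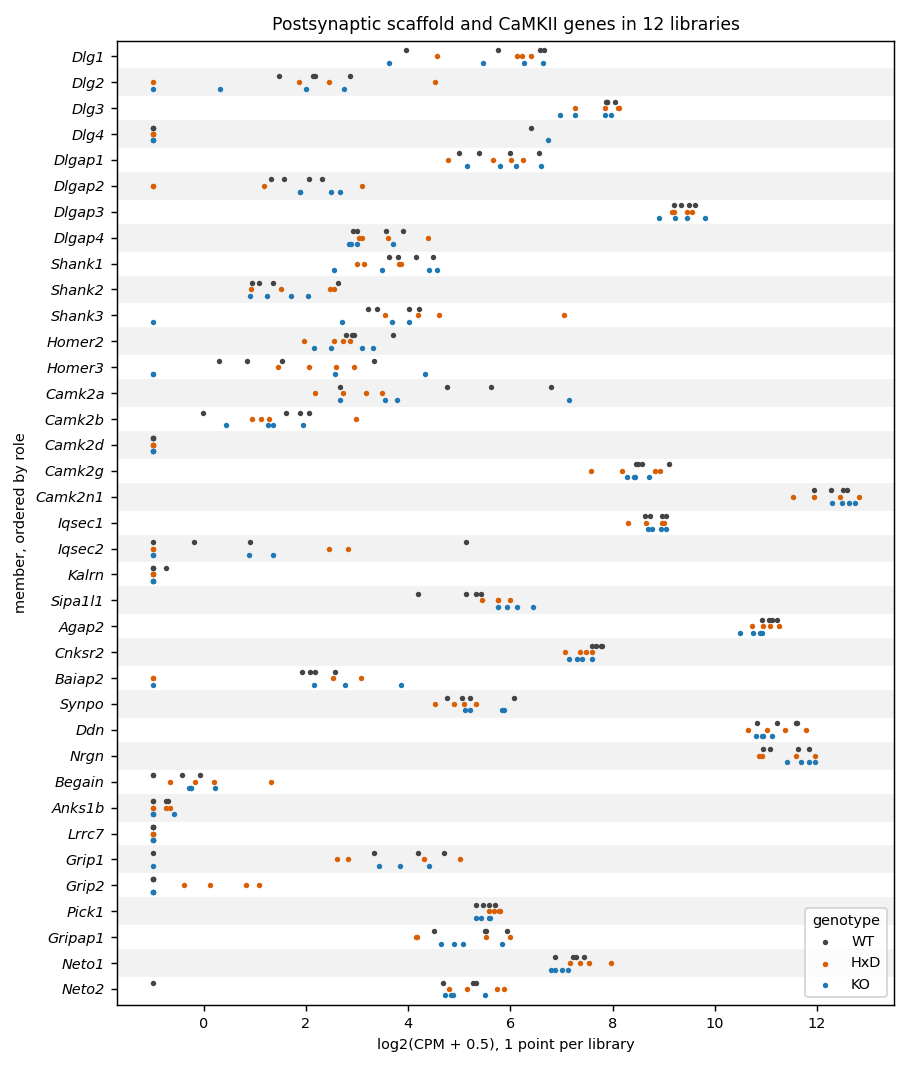
Level of each of the 37 genes in each library as log2(CPM + 0.5), 1 point per library, with WT in grey, HxD in orange and KO in blue; points at -1 are listed at 0. The levels of different genes are not corrected for transcript length here. Camk2n1, Nrgn, Ddn and Agap2 lie to the right in narrow bands, whereas genes such as Dlg4, Iqsec2, Grip1 and Camk2a spread widely within a genotype.

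No member passed the threshold of an adjusted p below 0.05 in any comparison in edgeR's quasi-likelihood test, adjusted over 11693 genes. In HxD against WT the count was 0 of 30, beside 0.898% of all tested genes (105 genes). In KO against WT it was 0 of 30, beside 0.154% (18 genes), and in KO against HxD 0 of 30, beside 1.02% (119 genes). At an unadjusted p below 0.05, 3 of 30 members (10%) stood in each comparison, where the share among all tested genes was 4.05% in HxD against WT, 9.48% in KO against WT and 11.6% in KO against HxD. These were Sipa1l1, Cnksr2 and Camk2a in HxD against WT, Sipa1l1, Cnksr2 and Agap2 in KO against WT, and Neto1, Camk2a and Shank3 in KO against HxD. Of the 30 tested members, 1 had libraries that did not overlap between the groups in each comparison (3.33%). The share of all tested genes that did so was 3.48% in HxD against WT, 7.2% in KO against WT and 7.59% in KO against HxD. In both comparisons with KO these shares were close to or below the background. The HxD and KO comparisons share the WT libraries, and the comparisons of KO share the KO libraries. DESeq2's Wald test, run as an alternative, called 1 member in KO against WT (Sipa1l1, adjusted p = 0.0123). It called 1 in KO against HxD (Neto1, adjusted p = 0.0432) and 0 in HxD against WT. Over all 11693 tested genes it called 288, 397 and 172 in these comparisons, in the same order. limma-voom called 0 members in each, beside 82 of all tested genes in HxD against WT, 0 in KO against WT and 84 in KO against HxD.

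The median log2 fold change of the 30 tested members was -0.07 in HxD against WT, with 11 above and 19 below 0, where all tested genes had a median of 0.01 and 51.3% above 0. In KO against WT it was -0.18 (10 above, 20 below; 0.01 and 50.9% for all tested genes), and it moved towards 0 without KO 3 (-0.023), WT 4 (-0.06), WT 3 (-0.06), WT 2 (-0.07) or KO 2 (-0.10). In KO against HxD it was -0.01, with 15 above and 15 below, beside 0.00 and 50.2%. Across 20 other settings or left-out libraries the KO against WT median ranged from -0.29 to -0.023, and that of HxD against WT from -0.11 to 0.01. In bulk RNA, fewer cells of a type and less RNA per cell cannot be told apart.

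**Figure D2:**
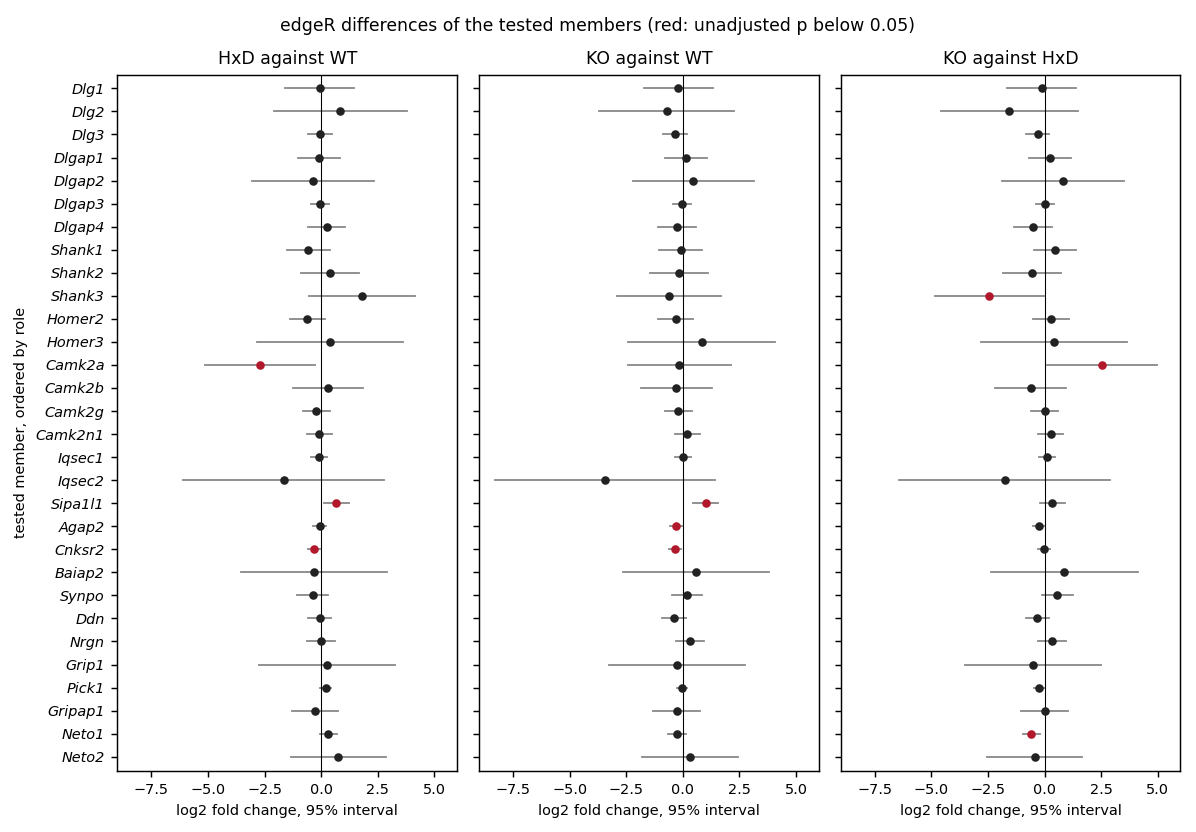
Log2 fold change (point) and 95% interval (line) of the 30 tested members in each comparison, from edgeR; red points have an unadjusted p below 0.05. Most intervals include 0, and those of Iqsec2, Grip1, Homer3 and Baiap2 span several log2 units, whereas those of Cnksr2, Agap2 and Pick1 are narrow.

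The regulators of small GTPases held the members with the smallest p in both comparisons with WT. Sipa1l1 encodes SPAR, a GTPase-activating protein for Rap that binds PSD-95 and shapes spines. In WT 1 to 4 its levels were 42.2, 17.9, 34.8 and 39.4 CPM, in HxD 53.6, 53.6, 63.2 and 43.3, and in KO 69.4, 86.7, 53.9 and 60.8. All 8 mutant libraries lay above the 4 WT libraries, by as little as 43.3 in HxD 4 against 42.2 in WT 1, and HxD and KO overlapped. The share of all tested genes with both mutant groups above WT was not counted. The log2 fold change was 1.01 ± 0.25 (SE; 95% interval 0.45 to 1.57) in KO against WT, or 2.02-fold, with an edgeR adjusted p of 0.199. In HxD against WT it was 0.67 ± 0.25 (adjusted p = 0.967), and in KO against HxD 0.34 ± 0.25 (adjusted p = 0.645). Without WT 2, the lowest library, the KO against WT value was 0.79, and over all alternatives it ranged from 0.79 to 1.13.

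Cnksr2 encodes CNK2, a scaffold of Ras signalling at the postsynaptic density. Its levels were 217, 221, 205 and 193 CPM in WT 1 to 4, 177, 134, 164 and 194 in HxD, and 194, 141, 157 and 169 in KO. The mutant libraries lay mostly below WT, but HxD 4 and KO 1 were slightly above the lowest WT library. Log2 fold changes were -0.32 ± 0.12 in HxD and -0.34 ± 0.12 in KO against WT (adjusted p = 0.999 and 0.411), and -0.02 ± 0.12 in KO against HxD. Agap2, a GTPase-activating protein for Arf proteins, showed 2127, 2212, 2370 and 1951 CPM in WT, 2430, 1699, 1972 and 2166 in HxD, and 1953, 1725, 1895 and 1451 in KO. KO 1 was just above the lowest WT library and the other 3 KO libraries were below all of WT. Its log2 fold change was -0.30 ± 0.12 in KO against WT (adjusted p = 0.474), -0.24 ± 0.12 in KO against HxD (0.504) and -0.07 ± 0.12 in HxD against WT. The myelin markers' mean score differed between genotypes (-0.01 in WT, -0.29 in HxD and 0.39 in KO). A fit with this score as a covariate, here and below, therefore cannot separate it from genotype. In that fit the KO against WT values of Cnksr2 and Agap2 were -0.26 and -0.22, and the KO against HxD value of Agap2 was -0.089. Without HxD 1 that last value was -0.15.

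TET1 acts on cytosines of CG pairs, and the sequence at the start of these genes shows how many such pairs each holds. The RefSeq promoter windows of assembly GRCm38.p6 (250 bases before to 50 bases after the start) are given for Sipa1l1 and Cnksr2, the members with the smallest p in both comparisons with WT although neither was called, and for the abundant genes Agap2 and Nrgn. They lie at chr12:82169766-82170065 on the plus strand (Sipa1l1), chrX:158043148-158043447 on the minus strand (Cnksr2), chr10:127078657-127078956 on the plus strand (Agap2) and chr9:37552696-37552995 on the minus strand (Nrgn). Each is written along its gene, 5′ to 3′, with CG pairs in capitals.
Sipa1l1: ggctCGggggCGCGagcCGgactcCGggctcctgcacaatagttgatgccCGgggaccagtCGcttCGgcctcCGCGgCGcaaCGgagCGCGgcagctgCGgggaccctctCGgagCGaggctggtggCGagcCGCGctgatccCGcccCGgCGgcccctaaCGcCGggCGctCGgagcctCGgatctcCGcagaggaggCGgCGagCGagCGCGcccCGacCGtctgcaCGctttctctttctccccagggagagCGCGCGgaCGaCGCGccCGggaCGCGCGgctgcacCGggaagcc
Cnksr2: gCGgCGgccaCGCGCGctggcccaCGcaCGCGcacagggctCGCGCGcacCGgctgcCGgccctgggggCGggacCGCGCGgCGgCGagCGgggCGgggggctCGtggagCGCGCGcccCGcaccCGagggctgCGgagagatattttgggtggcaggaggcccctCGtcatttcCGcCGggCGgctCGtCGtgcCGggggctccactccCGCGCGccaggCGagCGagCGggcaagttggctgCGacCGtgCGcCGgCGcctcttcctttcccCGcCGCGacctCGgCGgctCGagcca
Agap2: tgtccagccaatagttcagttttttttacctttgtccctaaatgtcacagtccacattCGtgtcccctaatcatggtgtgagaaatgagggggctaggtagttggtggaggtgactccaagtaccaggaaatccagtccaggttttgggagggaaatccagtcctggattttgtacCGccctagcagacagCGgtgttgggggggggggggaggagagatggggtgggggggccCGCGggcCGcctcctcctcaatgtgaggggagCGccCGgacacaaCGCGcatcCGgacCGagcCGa
Nrgn: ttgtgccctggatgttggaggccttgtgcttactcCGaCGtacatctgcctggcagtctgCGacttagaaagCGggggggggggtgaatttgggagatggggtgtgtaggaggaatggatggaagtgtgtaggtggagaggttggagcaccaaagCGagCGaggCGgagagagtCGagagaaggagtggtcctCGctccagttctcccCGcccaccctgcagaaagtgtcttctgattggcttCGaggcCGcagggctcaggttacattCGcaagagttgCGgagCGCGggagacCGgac
RefSeq lists a second start for Sipa1l1, whose window held 1 CG pair, and one for Cnksr2, whose window held 49. The richer windows, shown here, of Sipa1l1 and Cnksr2 held 48 and 52 CG pairs. These counts exceeded those of 98.8% and 99.4% of the 32851 windows in the table. The windows of Agap2 and Nrgn held 13 and 17, more than 62.1% and 68.6%. Agap2 also had an unadjusted p below 0.05 in KO against WT in edgeR's test. A relation of CG pairs to any difference was not tested. A window was listed for 28 of the 37 members, and no DNA methylation was measured in these libraries. Counting the richest window of each gene, 10 of 21 tested members with a window had at least 30 CG pairs (47.6%), beside 26.4% of 9231 tested genes, and the values ran from 2 in Dlgap3 to 52 in Cnksr2. Of the 28 members with a window, 15 had more than 1, some of them overlapping, and the richest was taken from several for such genes. The shares of motifs below are set beside all windows, which include those of untested genes. Of the 54 member windows, 32 (59.3%) held GGGCGG on either strand, whose central CG is part of the CG count, beside 35.7% of all windows. TATAAA was in 7 (13.0%, beside 13.6%) and TGACGTCA in 0 (beside 1.79%), also on either strand.

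Of the other members of this group, Iqsec1, an exchange factor for Arf proteins, was steady at 316 to 529 CPM over the 12 libraries, with log2 fold changes of -0.10 ± 0.16 in HxD and 0.02 ± 0.16 in KO against WT. Iqsec2, its X-linked relative, had 12, 4, 0 and 346 counts in WT 1 to 4, 61, 38, 0 and 0 in HxD, and 12, 10, 0 and 0 in KO. Only WT 4 exceeded 61 counts, and 5 of the 12 libraries were at 0. Its KO against WT log2 fold change of -3.43 ± 2.19 (adjusted p = 0.682) became 0.50 without WT 4. Kalrn, an exchange factor for Rac in spines, was listed at 1 count in WT 2 and at 0 elsewhere.

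**Figure D3:**
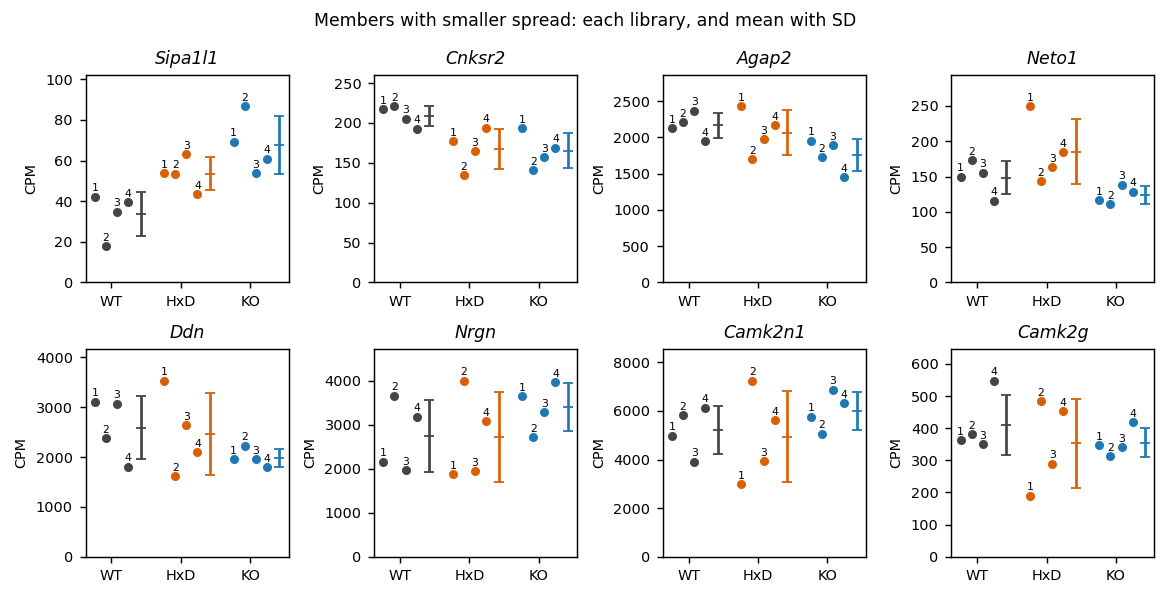
CPM of 8 members in each library (points, numbered by library) with the mean and SD of each genotype (n = 4) to the right of its points; each vertical axis starts at 0. All HxD and KO points of Sipa1l1 lie above the WT points, the KO points of Neto1 lie below the HxD points, and for the other 6 genes the groups overlap.

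Among the CaMKII genes, the inhibitor Camk2n1 and the gamma subunit varied less between libraries of a genotype (pooled SD 0.38 and 0.41 log2 units) than the alpha and beta subunits (1.55 and 0.85). Camk2n1 levels were 4978, 5834, 3908 and 6123 CPM in WT 1 to 4, 2973, 7247, 3937 and 5618 in HxD, and 5764, 5053, 6872 and 6320 in KO. In WT and HxD, libraries 2 and 4 were higher than 1 and 3, and the 3 genotypes overlapped. Log2 fold changes were -0.08 ± 0.25 in HxD against WT, 0.20 ± 0.25 in KO against WT and 0.28 ± 0.25 in KO against HxD (adjusted p = 0.999, 0.886 and 0.731). The KO against WT value was 0.0059 with the myelin score as a covariate and 0.088 without WT 3. That of KO against HxD was -0.0031 with the myelin score, and it ranged from 0.096 without HxD 1 to 0.52 without HxD 2.

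Nrgn, which competes for calmodulin, stood at 2164, 3655, 1972 and 3181 CPM in WT, 1874, 4003, 1942 and 3078 in HxD, and 3650, 2712, 3277 and 3971 in KO. Libraries 2 and 4 were again the high ones in WT and HxD. Its log2 fold change was -0.01 ± 0.28 in HxD against WT (95% interval -0.62 to 0.60), 0.31 ± 0.28 in KO against WT (-0.30 to 0.92) and 0.32 ± 0.28 in KO against HxD. As a ratio, the HxD against WT interval runs from 0.65 to 1.52. With the myelin score as a covariate the KO against WT value was 0.11 and that of KO against HxD 0.040, while leaving out 1 library gave 0.18 to 0.47 and 0.18 to 0.57.

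Camk2g, the gamma subunit, showed 362, 382, 349 and 548 CPM in WT, 190, 484, 289 and 452 in HxD, and 348, 312, 342 and 419 in KO. Log2 fold changes were -0.21 ± 0.27 against WT in both mutants and 0.01 ± 0.27 in KO against HxD. Camk2g took 70.9% to 98.8% of the CPM summed over the 4 subunit genes of a library. Camk2a, the alpha subunit and by background knowledge the main one of forebrain neurons, took 0.874% to 28.7%, Camk2b at most 2.42%, and Camk2d was listed at 0 in all 12 libraries. Camk2a also differed up to 23.9-fold between libraries of a genotype. These shares hold for the values as listed and are not read as the subunit make-up of cortex.

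Camk2a had 26.5, 48.4, 5.83 and 110 CPM in WT, 6.14, 10.8, 8.55 and 4.00 in HxD, and 141, 11.2, 5.88 and 13.2 in KO. The HxD libraries were uniformly low, but WT 3 and KO 3 were as low, and KO 1 was the highest of all. Its log2 fold changes of -2.69 ± 1.10 in HxD against WT (adjusted p = 0.999) and 2.53 ± 1.10 in KO against HxD (adjusted p = 0.414) therefore came with overlapping groups. In KO against WT it was -0.16 ± 1.03, and 0.66 without WT 4. Without KO 1 the KO against HxD value was 0.45. Camk2b, the beta subunit that binds actin, ran from 4 to 63 counts and reached its highest value in HxD 3. Its log2 fold changes were 0.32 ± 0.70 in HxD and -0.29 ± 0.71 in KO against WT and -0.61 ± 0.71 in KO against HxD, and without HxD 3 the HxD against WT value was -0.57 and that of KO against HxD 0.27.

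Of the MAGUK genes, 3 of 4 were tested and none was called. Dlg3, which encodes SAP102, was the highest per kb, with 233 to 263 CPM in WT, 153 to 278 in HxD, 126 to 249 in KO, and log2 fold changes of -0.05 ± 0.23 in HxD and -0.35 ± 0.23 in KO against WT. Dlg1, which encodes SAP97, ranged from 11.8 to 100.5 CPM and differed 8.42-fold at most between libraries of a genotype. Dlg2, which encodes PSD-93, had 35, 24, 56 and 39 counts in WT, 46, 0, 193 and 32 in HxD, and 36, 26, 7 and 0 in KO. Its KO against HxD log2 fold change was -1.56 ± 1.37 (adjusted p = 0.725), with HxD 2 and KO 4 both at 0, and it was -0.066 without HxD 3. Dlg4, which encodes PSD-95, the core scaffold of the density, was listed at 884 counts in WT 2 and 792 in KO 2 and at 0 in the other 10 libraries. The table thus holds no measure by genotype of PSD-95 mRNA.

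The GKAP genes Dlgap1 to Dlgap4, whose proteins link MAGUKs to Shanks, all passed the filter. Dlgap3 was steady, with WT at 683 ± 86.0 CPM, HxD at 652 ± 85.5 and KO at 669 ± 179 (SD, n = 4), with log2 fold changes of -0.07 ± 0.18 in HxD and -0.03 ± 0.18 in KO against WT. None of the other 3 was called, and their smallest p was that of Dlgap4 in KO against HxD (log2 fold change -0.52 ± 0.38, edgeR adjusted p = 0.645). Dlgap1 ran from 27.0 to 96.9 CPM, Dlgap4 from 6.68 to 20.4, and Dlgap2 from 0 to 8.06, listed at 0 in HxD 1 and HxD 3.

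The Shank and Homer genes were low in the table, with medians over the 12 libraries of 13.5 CPM for Shank1, 2.197 for Shank2, 14.01 for Shank3, 6.57 for Homer2 and 3.02 for Homer3. Shank3, a master scaffold of the deep layer, had 10.04, 18.1, 8.75 and 15.7 CPM in WT, 23.8, 17.8, 11.2 and 132 in HxD, and 5.99, 12.3, 15.7 and 0 in KO. HxD 4 stood far above the rest, and KO 4 was listed at 0. The log2 fold change was 1.81 ± 1.05 in HxD against WT (adjusted p = 0.999), -0.62 ± 1.04 in KO against WT and -2.43 ± 1.08 in KO against HxD (adjusted p = 0.428). Without HxD 4 it was 0.41 in HxD against WT and -1.06 in KO against HxD, and the KO against WT value was -0.23 without KO 4. Homer2, a partner of metabotropic receptors, showed 6.96, 7.14, 12.5 and 6.42 CPM in WT, 6.14, 3.38, 5.39 and 6.73 in HxD, and 9.42, 8.02, 3.96 and 5.12 in KO. WT 3 was the highest, and the HxD against WT log2 fold change was -0.61 ± 0.35 (adjusted p = 0.999), and -0.34 without WT 3. Homer3 ran from 0 counts in KO 2 and KO 3 to 115 in KO 1. Its log2 fold changes were 0.40 ± 1.45 in HxD and 0.83 ± 1.46 in KO against WT, and the latter was -0.98 without KO 1.

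Of the actin and spine proteins, Ddn had 3108, 2380, 3073 and 1804 CPM in WT, 3533, 1614, 2638 and 2092 in HxD, and 1956, 2228, 1953 and 1797 in KO. In WT and HxD, libraries 1 and 3 were higher than 2 and 4, the reverse of Camk2n1 and Nrgn. The KO libraries lay in a narrow band at the lower end of the WT range, with KO 4 just below it. The KO against WT log2 fold change was -0.39 ± 0.24 (95% interval -0.91 to 0.14; adjusted p = 0.670), and -0.12 with the myelin score as a covariate. Synpo, synaptopodin of the spine apparatus, showed 26.7, 32.6, 36.3 and 67.1 CPM in WT, 29.2, 22.5, 33.8 and 39.5 in HxD, and 34.1, 58.3, 36.5 and 56.5 in KO. The groups overlapped, and the KO against HxD log2 fold change was 0.57 ± 0.31 (adjusted p = 0.514). With the myelin or the striatal score as a covariate it was 0.25 or 0.26. Baiap2, which encodes IRSp53, a protein that shapes spine actin, ran from 0 to 14.04 CPM and was listed at 0 in HxD 2, HxD 3 and KO 4.

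The auxiliary subunits of kainate receptors held the tested member with the smallest p in KO against HxD. Neto1 levels were 150, 173, 155 and 116 CPM in WT, 249, 143, 163 and 184 in HxD, and 116, 111, 139 and 129 in KO. All KO libraries lay below all HxD libraries, by as little as 139 against 143, and WT overlapped both. The log2 fold change was -0.58 ± 0.17 in KO against HxD (95% interval -0.96 to -0.20; adjusted p = 0.240), 0.32 ± 0.17 in HxD against WT and -0.26 ± 0.17 in KO against WT (adjusted p = 0.999 and 0.689). Without HxD 1, the highest library, the KO against HxD value was -0.41. With the myelin score as a covariate it was -0.33, and that of KO against WT was -0.11. The HxD against WT value was 0.14 without HxD 1. This library also had the highest score of the hippocampal markers, 1.405 beside -0.30 to 0.41 in the other HxD libraries. Between KO and HxD the median log2 fold change was -1.24 for hippocampal markers (0 of 5 above 0), -1.09 for striatal markers (1 of 11 above) and 0.64 for myelin markers (12 of 12 above). The part of hippocampal tissue in the Neto1 values was not tested. Neto2 had 219, 417, 312 and 0 counts in WT, 326, 404, 235 and 598 in HxD, and 263, 211, 271 and 152 in KO. WT 4 alone was at 0, and the log2 fold changes were 0.76 ± 0.95 in HxD and 0.32 ± 0.95 in KO against WT, the latter -0.10 without WT 4.

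Among the PDZ proteins that bind AMPA receptors, Pick1, which takes part in their internalisation, had the smallest spread of the 30 tested members, with a pooled SD within genotype of 0.13 log2 units. It stood at 39.7, 47.2, 43.4 and 51.5 CPM in WT, 47.5, 55.4, 54.2 and 50.7 in HxD, and 48.1, 39.7, 42.6 and 47.3 in KO. HxD 2 and HxD 3 lay above every WT and KO library, whereas HxD 1 and HxD 4 did not, and log2 fold changes were 0.19 ± 0.10 in HxD against WT, -0.03 ± 0.10 in KO against WT and -0.23 ± 0.10 in KO against HxD (adjusted p = 0.999, 0.959 and 0.444). Grip1 had 0, 269, 79 and 178 counts in WT, 295, 43, 56 and 198 in HxD, and 60, 0, 129 and 122 in KO, with log2 fold changes of 0.25 ± 1.35 in HxD and -0.24 ± 1.36 in KO against WT. These were -0.35 without HxD 1 and 0.28 without WT 2. Gripap1, a partner of GRIP1 in endosomes, ran from 17.2 to 62.9 CPM. Grip2, the relative of Grip1, failed the filter. It was listed at 0 in all WT and KO libraries and at 15, 2, 5 and 13 counts in HxD. An exact permutation test over libraries, two-sided, gave p = 0.0286 both for HxD against WT and for KO against HxD. With 4 libraries a group no smaller p can be reached. It was 0.186 after Benjamini-Hochberg adjustment over 13 such tests.

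Of the remaining partners of PSD-95 or CaMKII, none passed the filter. Begain ran from 0 to 17 counts, Anks1b from 0 to 1, and Lrrc7, which encodes densin, was at 0 in all 12 libraries.

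The spread between libraries of a genotype was larger for these genes than for most. The median pooled SD within genotype of log2(CPM + 0.5) was 0.57 over the 30 tested members and 0.34 over all tested genes. The values ran from 0.13 (Pick1), 0.18 (Cnksr2) and 0.18 (Agap2) to 2.11 (Iqsec2) and 2.18 (Grip1), and 10 tested members had an SD of at least 1. All 10 tested members with a median of at least 100 CPM had an SD below 0.5. Of the 27 members that reach 100 counts in a library, 7 (25.9%) were at 0 in another library of the same genotype: Dlg2, Dlg4, Shank3, Homer3, Iqsec2, Grip1 and Neto2. Among all genes that reach 100 counts this share was 10% (929 of 9250).

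**Figure D4:**
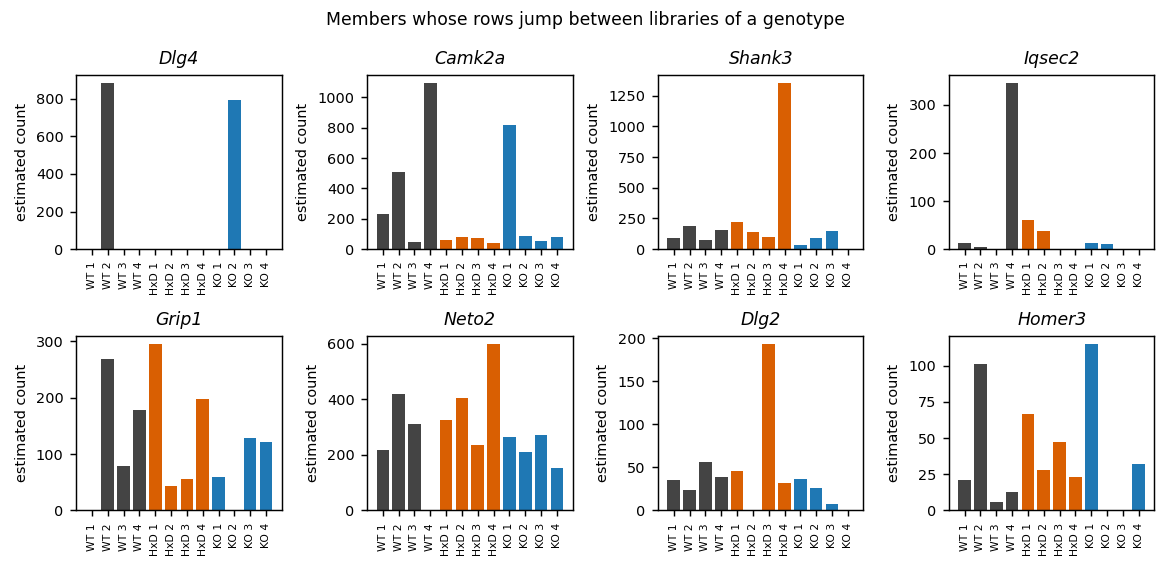
Estimated counts (bars, axis from 0) in each of the 12 libraries for the 7 members at 0 in a library while another of the same genotype holds at least 100 counts, and for Camk2a, which is never at 0. WT 2 and KO 2 hold all counts of Dlg4, WT 4 holds most of those of Iqsec2, and HxD 4 most of those of Shank3.

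The genes here also have many annotated transcripts, with a median of 12 in RefSeq against 3 for all tested genes. For genes with 1 RefSeq transcript, 3.21% of all genes that reach 100 counts jumped to 0 within a genotype, and this share was 6.77% for 2 to 4 transcripts, 14.9% for 5 to 9 and 24.8% for 10 or more. Of the members, 0 of 3 with 1 transcript (Nrgn, Camk2n1 and Ddn), 2 of 7 with 5 to 9 (28.6%) and 5 of 17 with 10 or more (29.4%) did so. The median SD of the tested members was 0.38 with 1 transcript, 1.19 with 5 to 9 and 0.64 with 10 or more, so it did not rise throughout with transcript number. The part of transcript assignment in any member's value was not tested. The members are also long, with a median longest transcript of 5305 nt against 3391 nt. Removing each library's trend with transcript length gave medians of -0.04 in HxD against WT, -0.14 in KO against WT and -0.01 in KO against HxD.

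**Figure D5:**
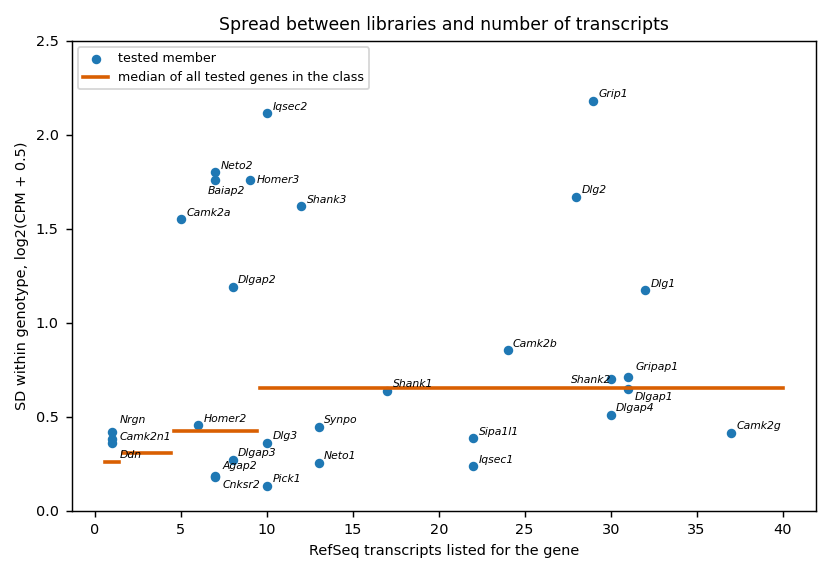
Pooled SD within genotype of log2(CPM + 0.5) (vertical axis) against the number of RefSeq transcripts of each tested member (blue points), with the median SD of all tested genes in each class of transcript number (orange lines). The class medians rise from 0.26 for 1 transcript to 0.65 for 10 or more, and Pick1, Iqsec1, Neto1 and Sipa1l1 lie below their class median.

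Genes around the members gave a mixed picture. Of 48 other postsynaptic density scaffolds and spine regulators, 44 were tested, and the only call was in KO against HxD. This was Dbn1, drebrin, which binds actin in spines, and it fell from 157 ± 26.1 CPM in HxD to 97.2 ± 6.59 in KO (SD, n = 4; log2 fold change -0.69 ± 0.13, adjusted p = 0.0353). WT stood at 130 ± 17.6 CPM, and the KO against WT value of Dbn1 was -0.42 ± 0.13 (adjusted p = 0.330). Of 29 tested calmodulin pathway genes of 31, Rcan2, an inhibitor of calcineurin, was the only call, with WT at 226 ± 64.1 CPM, HxD at 0.03 ± 0.06 and KO at 278 ± 42.1 (adjusted p = 4.78e-08 in HxD against WT and 4.46e-08 in KO against HxD). Of 25 tested glutamate receptor and adhesion genes of 29, Lrrtm2, an adhesion protein of excitatory synapses, was the only call. WT stood at 7.15 ± 4.90 CPM, HxD at 118 ± 25.3 and KO at 0.19 ± 0.11 (adjusted p = 0.0138 in HxD against WT and 0.000279 in KO against HxD). In KO against WT, 0 genes of these 3 lists passed the threshold of edgeR's test, beside 0.154% of all tested genes. At an unadjusted p below 0.05 there were 7 of 44 (15.9%), 3 of 29 (10.3%) and 6 of 25 (24%), beside 9.48% of all tested genes, and no test compared these shares.

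The medians of these lists in KO against WT were -0.08 for the other scaffolds (16 above and 28 below 0), -0.09 for the calmodulin pathway (10 and 19) and -0.22 for the receptors (7 and 18). Presynaptic vesicle and release genes, 40 tested of 42, had -0.15 (12 and 28). The tested members' -0.18 thus lay among those of other synaptic lists on both sides of the synapse, and no test compared the lists. Beside it, the median was -0.19 for excitatory neuron markers (2 above, 8 below), 0.27 for astrocyte markers (10 above, 1 below), 0.36 for myelin markers (9 above, 3 below) and -0.83 for striatal markers (1 above, 10 below). For GABAergic neuron markers it was -0.0013 (5 above, 5 below), for microglia -0.12 (2 above, 5 below) and for endothelium and mural cells 0.15 (5 above, 3 below). Hippocampal markers had -0.09 (1 above, 4 below) and choroid plexus markers -0.47 (1 above, 2 below). The astrocyte markers summed to 3525 to 4511 CPM in WT and 4457 to 4992 in KO, and no astrocyte or myelin marker was at 0 in all libraries. With the myelin score as a covariate the members' median in KO against WT was -0.13, and with the striatal score it was -0.10. Both scores differed between genotypes, with means in WT and KO of -0.01 and 0.39 for myelin and 0.13 and -0.41 for the striatum. Such fits therefore cannot separate genotype from tissue make-up, and the part of any cell type was not tested.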

How the data were processed

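Poly(A) RNA of 12 adult mouse cortex libraries was measured, and genotypes were taken from the sample labels. The submitters' processing notes list STAR 2.7.1a, StringTie 2.2.3, SAMtools 1.9, Trim Galore 0.6.7 and FastQC, and the builds mm10 and GRCm39. The step from reads to genes is not given in the sources used here. Whole numbers per gene symbol were deposited by the authors and are read here as estimated counts (expected counts) because some genes of every cell are listed at 0. Of 21769 rows, 56 rows of 25 symbols listed more than once were left out.

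In R 4.3.3, edgeR 4.0.16 (TMM factors, filterByExpr at a minimum count of 10, robust quasi-likelihood F test, two-sided) was fitted to all 12 libraries with genotype as the only term, and 11693 genes were tested. Adjusted p is Benjamini-Hochberg over these genes. SE is the log2 fold change divided by the square root of F. CPM (counts scaled to a common library size) refers to the tested genes' total times the TMM factor. A score is the median over a marker list of centred log2(CPM + 0.5). DESeq2 1.42.0, limma 3.58.1, other factors, filters, thresholds, covariates, a replicate block and each library left out were alternatives, and scripts were checked on simulated data. Transcript lengths are from GENCODE M21, and transcript numbers and promoter windows from RefSeq (GRCm38.p6).

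Named members are the 6 with the smallest p per comparison, those that jump between 0 and at least 100 counts within a genotype, and Camk2a, Camk2b, Dlg4, Shank3, Nrgn and Camk2n1. Other genes named are at most 2 per list and comparison. Members and lists were chosen with earlier results of these data known. Total counts bear on counting error alone, because PCR copies cannot be told from separate molecules without molecular identifiers.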

Additional observations from a re-analysis of the deposited data

Results flagged for a closer look

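Of 100 groups of 4 libraries examined, 15 held a library far from the other 3. The rule flags about 1 in 20 groups by chance only if values are normally distributed. That rate was not tested for the CPM values used here, which include many at 0. A group with counts in 1 library alone is always flagged, and all 15 libraries lay above the others of their group. The 15 groups are therefore not read as an excess over chance. The values are CPM with no explanation. Dlg4 stood at 84.2 in WT 2 and at 105.8 in KO 2, with the other WT and KO libraries at 0. Camk2a was at 140.6 in KO 1 (others 5.88 to 13.2), Shank3 at 132.1 in HxD 4 (others 11.2 to 23.8), Iqsec2 at 34.7 in WT 4 (others 0 to 1.37) and Camk2b at 7.38 in HxD 3 (others 1.43 to 1.94). Camk2g was at 548.1 in WT 4 (others 349.4 to 382.1), Neto2 at 45.0 in KO 1 (others 26.0 to 29.0) and Dlg3 at 262.6 in WT 3 (others 233.0 to 236.1). Homer2 at 12.5 and Shank2 at 5.71 were high in WT 3, and Dlgap4 at 12.5 in KO 1. The others of the 15 rest on few counts: Kalrn at 0.095 in WT 2 (1 count), Anks1b at 0.17 in KO 4 (1 count) and Begain at 0.67 in KO 2 (5 counts).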

How the results depend on the processing

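Of 868 alternative values for 44 differences of the members named by rule, 827 kept their sign and 41 did not. DESeq2's Wald test called 1 member in KO against WT (Sipa1l1) and 1 in KO against HxD (Neto1), where it called 288 and 397 of all tested genes and edgeR 18 and 119. With library size only, the HxD against WT log2 fold change of Nrgn was 0.0065. With limma-voom that of Dlg2 was -0.59, and Homer3 was at -2.28 in KO against WT and -3.07 in KO against HxD. With the myelin score the HxD against WT values were 0.073 for Nrgn, 0.0090 for Camk2n1, -0.66 for Dlg2 and 1.45 for Iqsec2, and the KO against HxD values -0.0031 for Camk2n1 and 0.43 for Dlg2. With the striatal score they were 0.060 for Nrgn and -0.099 for Camk2b in HxD against WT, 0.039 for Dlg2 in KO against WT and 0.069 for Camk2b in KO against HxD.

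Leaving out 1 library at a time gave ranges in HxD against WT of -0.26 to 0.15 for Nrgn, -0.32 to 0.10 for Camk2n1, -0.57 to 0.56 for Camk2b, -0.65 to 1.26 for Dlg2, -0.35 to 0.78 for Grip1 and -2.49 to 2.27 for Iqsec2. In KO against WT they were -4.31 to 0.50 for Iqsec2, -2.24 to 0.66 for Camk2a, -0.98 to 2.07 for Homer3, -0.73 to 0.28 for Grip1, -0.10 to 0.60 for Neto2 and -0.25 to -0.023 for the members' median. In KO against HxD they were -0.96 to 0.27 for Camk2b, -1.38 to 0.85 for Homer3 and -0.98 to 0.096 for Grip1. Beyond the libraries left out, the causes were not tested.

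Correlations of same-numbered libraries' deviations were -0.07 to 0.08, below the level taken as pairing. Between WT and HxD, 7 of 8 correlations within libraries 1 and 3 or within 2 and 4 were above 0, and 8 of 8 across these sets were below 0 (-0.12 to -0.011). Deviations from a genotype's mean sum to 0, so values above 0 within the sets bring values below 0 across them. The counts within and across the sets are therefore not separate evidence. The labels do not name these sets, and no fit included them. With the number as a replicate block, 0 members were called in each comparison, and calls over all tested genes were 74 in HxD against WT, 5 in KO against WT and 95 in KO against HxD. Members' medians were then -0.07, -0.20 and -0.12, Grip1 was at -0.024 in HxD against WT and Homer3 at -0.42 in KO against HxD. Intervals of Iqsec2, Grip1 and Homer3 span several log2 units, so smaller differences were not detectable for them.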
